A study of Mus musculus with 9 samples.

Results

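The 44 genes described here act in DNA replication and S phase. They were chosen as a list of symbols by function, with no measured value in the rule, though earlier results of these data were known. Each is 1 of the 55453 lines of the count table, and all 44 passed the filter that kept 13568 genes for testing, with the lowest member count in any library at 103. They comprise 10 origin licensing genes, 6 helicase activation genes, 6 genes of primase and the DNA polymerases, 5 of the sliding clamp and its loader, 2 of single-stranded DNA binding, 2 of Okazaki fragment joining, 4 of nucleotide supply, 5 of chromatin and histone supply, and 4 regulators of S phase entry.

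The 9 RNA sequencing libraries, in 3 groups of 3, came from ST2, a WT stromal line derived from a long-term culture of mouse bone marrow. Cells labelled PMN Fed 24hrs (fed 24 h) and PMN Fed 3hrs (fed 3 h) had been given human neutrophils, and the third group was the control of ST2 cells alone, collected at 24 h (unfed). The neutrophils had been kept frozen for at least 18 h, stained with a fluorescent dye at 20 µM and added at 10 per ST2 cell once the cultures were 80% confluent, and fed ST2 cells were sorted for a dye signal of at least a whole neutrophil. No unfed libraries at 3 h were analysed, so feeding and collection time cannot be told apart in the comparison of fed 3 h with unfed cells, nor can uptake and the sort for uptake in either comparison. All 9 libraries come from 1 cell line, and the labels do not say whether the replicates were separate cultures, so p-values rest on the spread among these libraries alone.

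Replication origins are licensed when the origin recognition complex, with CDC6 and CDT1, loads the MCM helicase onto DNA before S phase. At S phase entry the helicase is switched on by CDC45, the GINS complex and MCM10, after which primase and the polymerases copy DNA behind it with the help of the PCNA clamp. Transcription of many of these genes is driven by E2F factors, which are released when cyclin-dependent kinases inactivate the retinoblastoma protein, and osteoblast precursors in marrow stroma are known to divide before they mature and leave the cell cycle.

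Total counts ran from 44442664 to 55971275 per library, of which 231013 to 298438 fell on the 44 members. Of the 12 marrow stromal markers, Thy1 had at most 1 count in any group, and the summed level of the 12 was 32590 to 34323 CPM (counts scaled to a common library size) in fed 24 h, 26009 to 26663 CPM in fed 3 h and 29553 to 31832 CPM in unfed libraries. Of the 11 markers tested, 5 were called higher and 0 lower at 24 h, and 1 higher and 7 lower at 3 h, each against unfed cells. Among called markers with at least 5 CPM, the most changed were Ly6a (log2 fold change 0.56 at 24 h and −1.87 at 3 h), the chemokine Cxcl12 (0.48 and −1.33) and Kitl, the ligand of the Kit receptor (0.34 and −1.31). The signs of these genes were opposite to those of the medians of the replication genes in both comparisons. This does not hold for all 11, whose highest value at 3 h was 0.52. Nt5e, at no more than 1.82 CPM, had 236 counts in fed 24 h, 215 in fed 3 h and 146 in unfed libraries. The 14 mouse neutrophil markers summed to 3.45 to 4.31 CPM in fed 24 h, 0.755 to 1.42 CPM in fed 3 h and 2.36 to 2.95 CPM in unfed libraries, mostly from Camp, with S100a9 and Ngp at 0 in all 9 libraries. The 10 mouse macrophage markers summed to 24.7 to 28.1 CPM in fed 24 h, 27.8 to 28.8 CPM in fed 3 h and 23.3 to 25.4 CPM in unfed libraries, mostly from Cd14, with Adgre1, C1qa, C1qb and Fcgr1 at 0, and the 8 endothelial markers never exceeded 0.658 CPM. Ptprc, carried by all white blood cells, never exceeded 0.0838 CPM. The neutrophils given were human, so low counts of these mouse genes need not mean that little of their RNA was carried over. The part of other cell types in the results was not tested.

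The summed level of the members was lowest at 24 h and highest at 3 h. It was 4606, 4892 and 4595 CPM in the fed 24 h libraries, 5872, 5789 and 5964 CPM in the fed 3 h libraries, and 5050, 5521 and 5254 CPM in the unfed libraries. The 3 groups did not overlap on this sum. In the fed 24 h against unfed comparison, 19 of 44 members fell and 0 rose (edgeR quasi-likelihood test, Benjamini-Hochberg adjusted p under 0.05 over all genes tested), whereas 15.9% of the 13568 genes tested were called lower and 14.9% higher. In the fed 3 h against unfed comparison, 25 of 44 rose and 0 fell, against 25.1% of genes called higher and 25.5% lower. The 2 comparisons share the unfed libraries.

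The median log2 fold change of the 44 was −0.13 at 24 h, with a range from −0.67 to 0.06, and 0.17 at 3 h, with a range from −0.10 to 0.52. Over all genes tested the medians were −0.0013 at 24 h and −0.0085 at 3 h. At 24 h, 43 of 44 members lay below 0, the exception being Cdc45. At 3 h, 37 of 44 lay above 0. In bulk RNA, fewer cells in S phase and less of these transcripts per cell cannot be told apart.

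**Figure D1:**
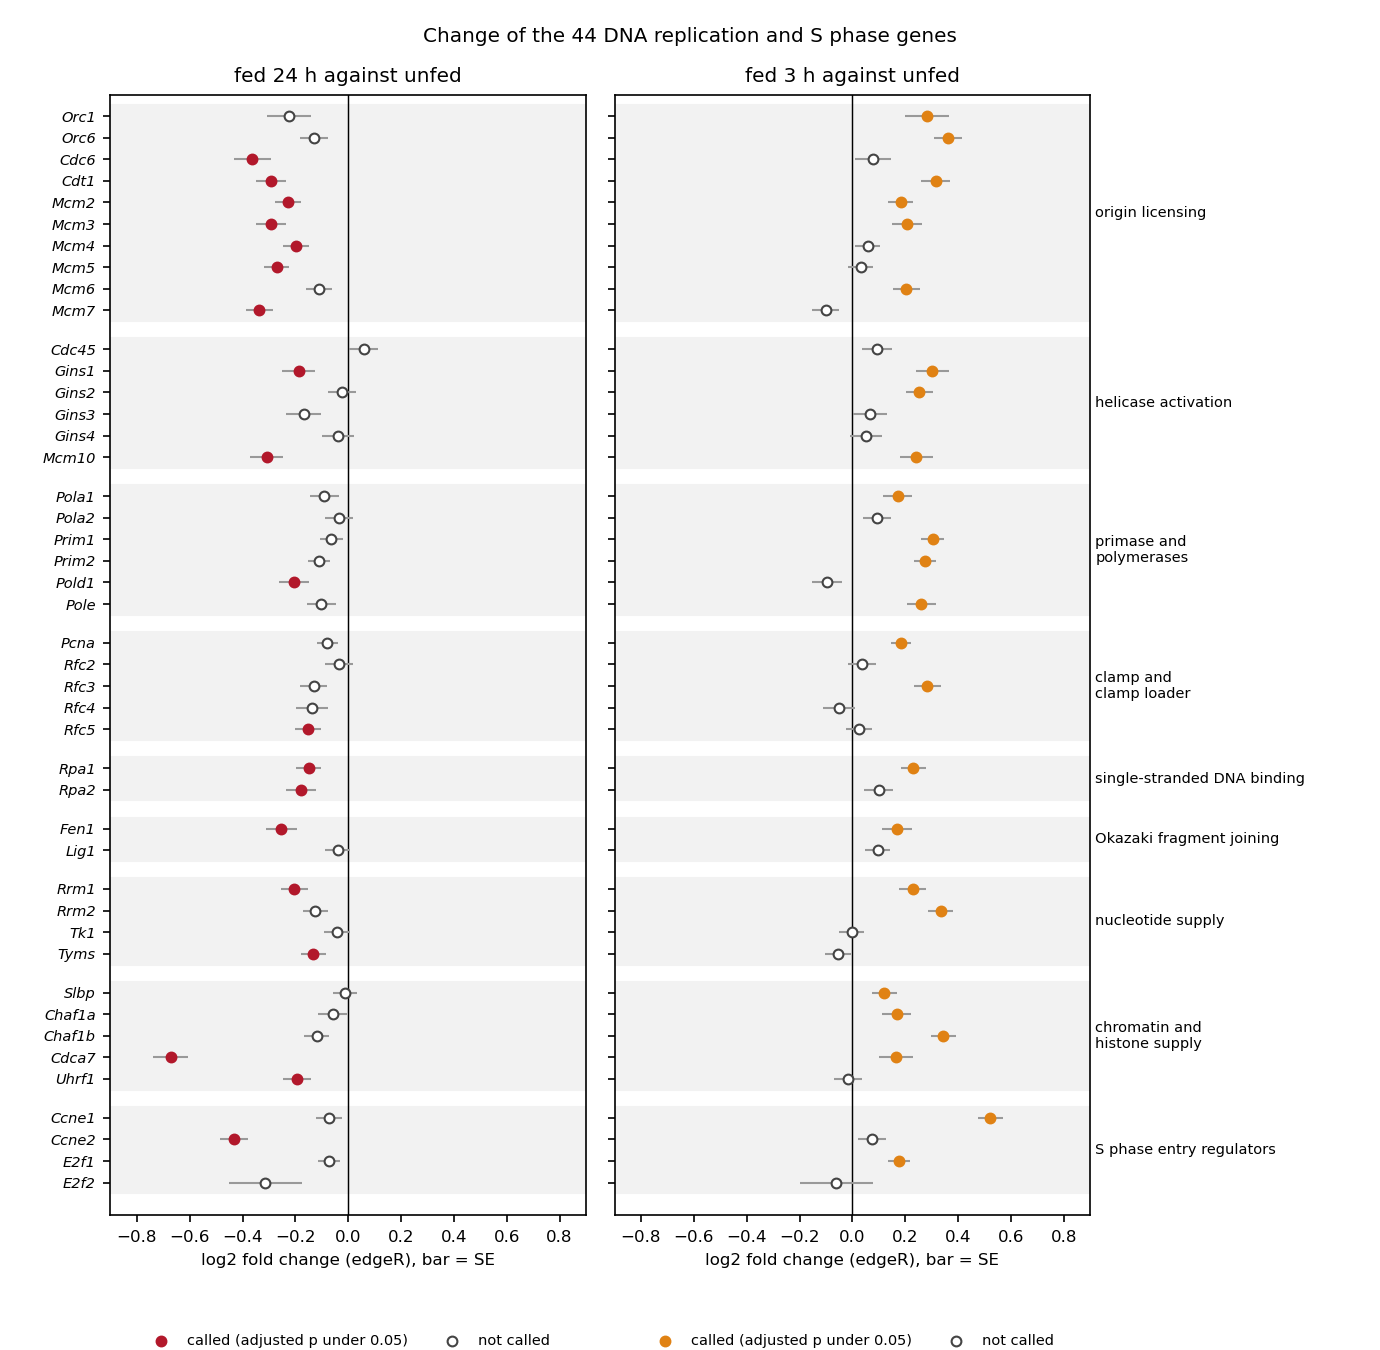
Log2 fold changes of the 44 members from the edgeR fit, with fed 24 h against unfed on the left and fed 3 h against unfed on the right, grouped by role. Bars are standard errors and filled points are called. At 24 h all 19 called members lie left of 0, and at 3 h all 25 called members lie right of it.

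Library by library, 30 of the 44 members had all 3 fed 24 h libraries below all 3 unfed libraries, a pattern seen in 22% of genes tested. For 26 members the 3 fed 3 h libraries lay above the 3 unfed libraries, against 29.1% of genes. Taking all 9 libraries at once, 27 members had their lowest 3 values in the fed 24 h libraries (15.4% of genes tested) and 26 had their highest 3 in the fed 3 h libraries (23.5% of genes). Unfed replicate 2 carried the highest member levels among the unfed libraries, with 5 of 44 below the unfed mean, and unfed replicate 1 the lowest, with 37 of 44 below it.

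**Figure D2:**
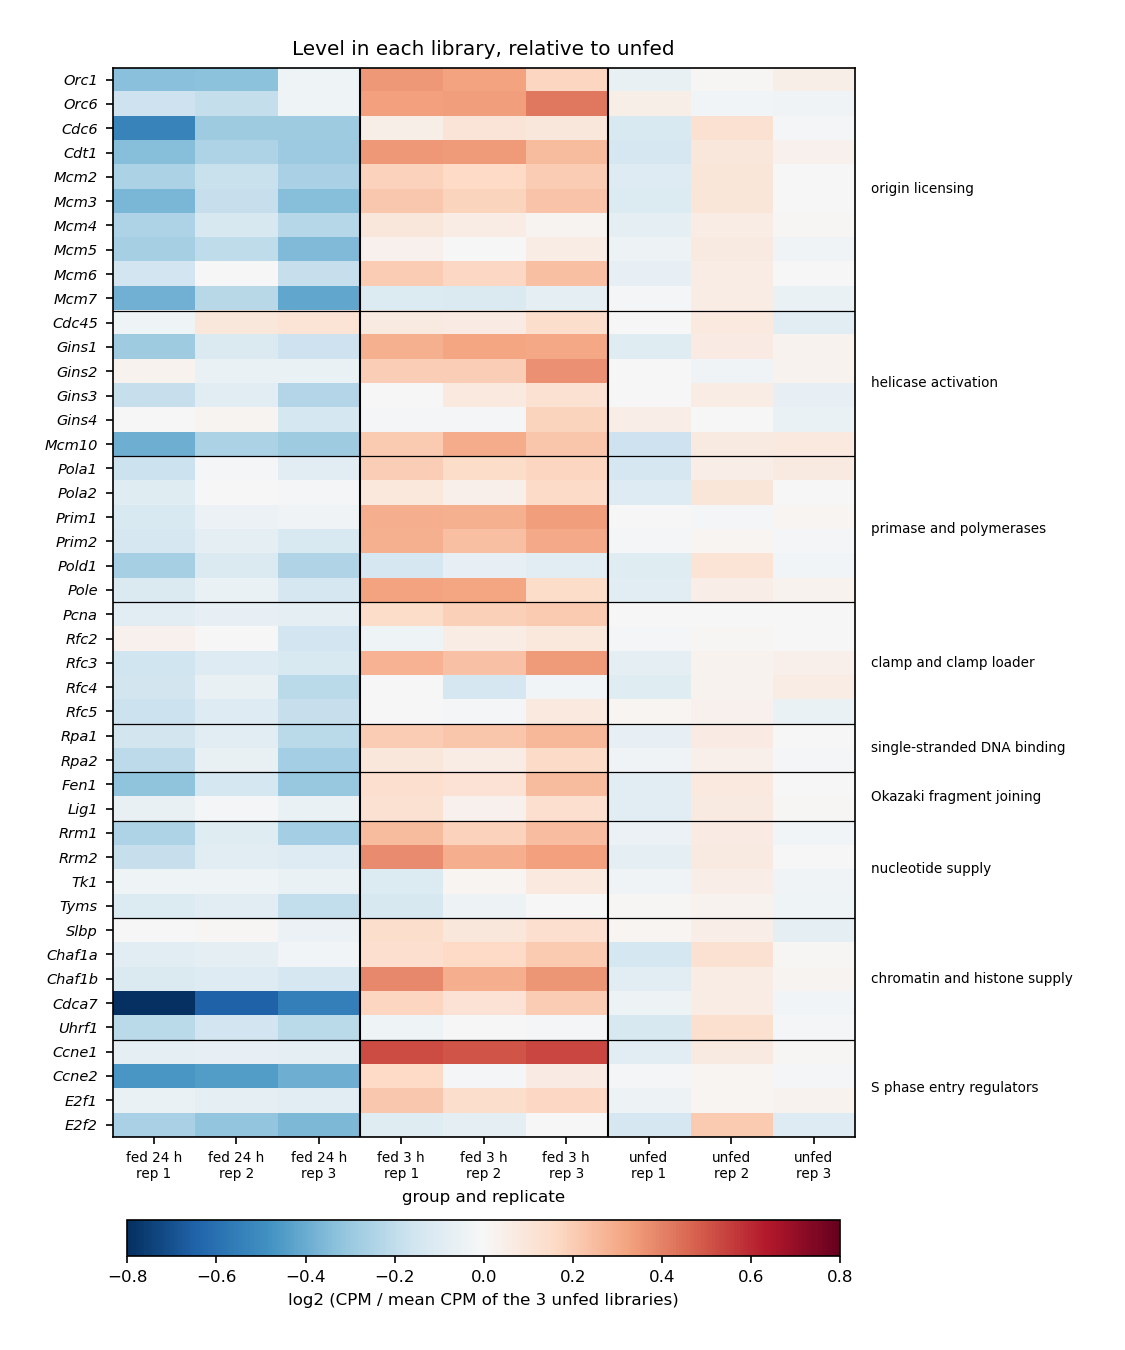
Each row is a member and each column a library, coloured by log2 of its CPM over the mean CPM of the 3 unfed libraries. Blue in the 3 fed 24 h columns and red in the 3 fed 3 h columns run through most roles, and Cdca7 at 24 h and Ccne1 at 3 h have the strongest colours.

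The count of 19 was sensitive to single libraries. Without fed 24 h replicate 1, 12 members were called lower at 24 h, and without unfed replicate 2 the number was also 12, with 0 called higher in either case. Over all genes, 1426 were called lower without fed 24 h replicate 1, against 2159 with all 9 libraries. With any 1 library left out, this number over all genes ran from 1426 to 2241. Genes linked to ribosomal RNA took 0.298 ± 0.0838% of counts in fed 24 h, 0.149 ± 0.0865% in fed 3 h and 0.102 ± 0.0125% in unfed libraries, and mitochondrially encoded genes took 1.88 ± 0.228% in fed 24 h, 1.37 ± 0.243% in fed 3 h and 1.51 ± 0.0711% in unfed libraries (SD, n = 3 each). With those genes left out of the fit the calls were again 19 lower at 24 h and 25 higher at 3 h.

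Promoter sequence was examined because many of the members are textbook E2F targets. RefSeq promoter windows of build GRCm38.p6, reaching 250 bases before to 50 bases after the annotated start, matched 36 of the 44 members, and Rfc2, Ccne2, Prim2, Gins1, Gins4, Mcm4, Pole and Gins2 had no entry. At least 1 of the 8-letter motifs TTTCCCGC, TTTGGCGC, TTTGCCGC and TTTCGCGC, searched on both strands and allowed to overlap each other, occurred in the windows of 15 of the 36 members, or 41.7%. The same search found one in 2.61% of the 27025 genes in the table and in 3.29% of its 17492 protein-coding genes. The windows below belong to the 4 members with a match and the largest change against unfed cells. Capitals mark the motif, which on its own strand reads TTTCCCGC for Cdca7, Cdc6 and the first Mcm7 match, TTTCGCGC for the second Mcm7 match and TTTGGCGC for Cdt1.
Cdca7 (chr2:72476108-72476188, plus strand): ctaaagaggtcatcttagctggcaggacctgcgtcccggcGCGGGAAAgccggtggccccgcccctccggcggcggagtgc
Cdc6 (chr11:98907973-98908060, plus strand): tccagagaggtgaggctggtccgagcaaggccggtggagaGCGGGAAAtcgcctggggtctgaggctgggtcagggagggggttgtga
Mcm7, first match (chr5:138172030-138172059, minus strand): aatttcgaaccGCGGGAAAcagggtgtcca
Mcm7, second match (chr5:138171849-138171878, minus strand): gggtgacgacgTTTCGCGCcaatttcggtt
Cdt1 (chr8:122568036-122568064, plus strand): ggaactaccttTTTGGCGCcatggcgcaa

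Counted from the first transcribed base as 0, the Cdca7 match lies at −71 to −64, upstream of the annotated gene, and the Cdc6 match at −138 to −131 lies in the gene body outside its exons in GENCODE M21. The Mcm7 matches at −165 to −158 and at 16 to 23, and the Cdt1 match at 32 to 39, lie in annotated untranslated sequence, and the window of the first Mcm7 match also holds exon bases of Ap4m1. The other members with a match were Orc1, Mcm3, Mcm5, Mcm6, Gins3, Pola1, Pold1, Rfc3, Lig1, Uhrf1 and E2f2. The CCAAT box stood in 22 of 36 member windows (61.1%) and in 41.1% of all genes, and TTTGAA, a motif of G2 and mitosis promoters, in 5 of 36 (13.9%) and in 20.2% of all genes. A match is a description of these letters only.

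**Figure D3:**
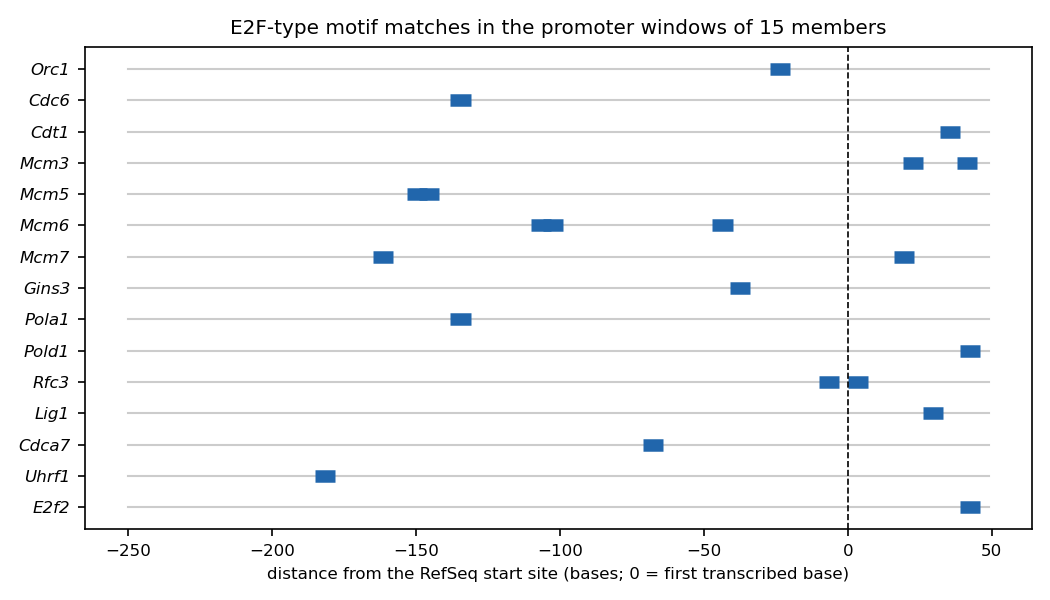
Positions of the E2F-type motifs in the RefSeq promoter windows of the 15 members with a match, in bases from the start site at 0 (dashed line). Grey lines are the windows and blue bars the matches, which lie between 250 bases before and 50 bases after the start, with 2 neighbouring matches overlapping in Mcm5 and in Mcm6.

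Counts by role are to be read against the 15.9% of all genes called lower at 24 h and the 25.1% called higher at 3 h. Differences between members or roles were not tested. Origin licensing held the most calls at 24 h. Of its 10 genes, 7 fell at 24 h (median −0.25) and 6 rose at 3 h (median 0.19). Cdc6, the ATPase that helps load the MCM helicase, had 30.8, 36.7 and 36.6 CPM in the fed 24 h, 46.05, 47.9 and 47.6 CPM in the fed 3 h and 41.1, 48.6 and 44.3 CPM in the unfed libraries. The 3 fed 24 h values are the lowest of the 9, and the fed 3 h and unfed libraries overlap. Cdc6 fell at 24 h (log2 fold change −0.36, SE 0.0696, edgeR adjusted p = 0.00129) and was not called at 3 h (log2 fold change 0.08, SE 0.0690, edgeR adjusted p = 0.362). Cdt1, its partner in helicase loading, had 58.3, 62.2 and 60.2 CPM in the fed 24 h, 93.9, 93.4 and 88.1 CPM in the fed 3 h and 67.3, 78.4 and 75.6 CPM in the unfed libraries. Its 3 groups do not overlap, with fed 3 h on top, and it was called in both directions, −0.29 at 24 h (edgeR adjusted p = 0.0012) and 0.32 at 3 h (edgeR adjusted p = 0.000195).

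Orc1 and Orc6, of the origin recognition complex, rose at 3 h. Orc6, a subunit of that complex, had 31.4, 30.9 and 34.3 CPM in the fed 24 h, 44.2, 44.3 and 47.1 CPM in the fed 3 h and 36.4, 34.6 and 34.5 CPM in the unfed libraries. The fed 3 h libraries stand above all others, and the fed 24 h libraries lie just below the unfed ones. Orc6 rose at 3 h (log2 fold change 0.36, SE 0.0527, edgeR adjusted p = 3.8e-05), while its value at 24 h was −0.13 (edgeR adjusted p = 0.0807, not called). Orc1, the largest subunit, averaged 10.3 ± 1.27 CPM in fed 24 h, 14.6 ± 0.924 CPM in fed 3 h and 12.02 ± 0.452 CPM in unfed libraries (SD, n = 3 each). It rose at 3 h (0.28, edgeR adjusted p = 0.00963), and at 24 h its value of −0.23 was not called (edgeR adjusted p = 0.0536), though it was in 4 of 19 alternatives, among them a fit of the 6 libraries compared with the replicate number as a block (edgeR adjusted p = 0.0339). Exons of Orc1 share 10.8% of their bases with Gm12743 on the other strand, and whether reads kept their strand is unresolved.

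All 6 subunits of the MCM2-7 helicase lay below 0 at 24 h, from −0.34 to −0.11. Mcm7 had 172, 192 and 168 CPM in the fed 24 h, 208, 207 and 212 CPM in the fed 3 h and 222, 234 and 217 CPM in the unfed libraries. The fed 24 h libraries are lowest and the fed 3 h libraries lie between them and the unfed ones, with no overlap. Mcm7 fell at 24 h (log2 fold change −0.34, SE 0.0509, edgeR adjusted p = 0.000223) and had a value of −0.10 at 3 h (edgeR adjusted p = 0.109), which became a call only without fed 24 h replicate 2 or with library totals alone. Mcm6, the member of its role with the most counts, had 323, 357 and 316 CPM in the fed 24 h, 413, 403 and 423 CPM in the fed 3 h and 343, 373 and 359 CPM in the unfed libraries. Fed 24 h replicate 2 lies inside the unfed range, and all fed 3 h values lie above it. Mcm6 rose at 3 h (log2 fold change 0.20, SE 0.0507, edgeR adjusted p = 0.00339), and its value of −0.11 at 24 h (edgeR adjusted p = 0.112) was called only without fed 24 h replicate 2 or in the blocked fit of the 6 libraries compared (edgeR adjusted p = 0.0470).

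Mcm2 and Mcm3 fell at 24 h (−0.23 and −0.29) and rose at 3 h (0.18 and 0.21). Mcm4 and Mcm5 fell at 24 h (−0.20 and −0.27) but were not called at 3 h (0.06 and 0.03). Hence 5 of the 6 subunit genes were called lower at 24 h and 3 of the 6 higher at 3 h. Per length of exon, the unfed levels of the 6 differed, with Mcm5 at 87.6, Mcm4 at 79.5 and Mcm6 at 76.9 CPM per kb, all among the highest 5 of the 44 members, behind Rrm2 at 125 and Pcna at 96.6 CPM per kb. The lowest unfed levels per length belonged to E2f2 at 0.509, Orc1 at 3.46 and Gins3 at 4.78 CPM per kb.

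Of the 6 helicase activation genes, 2 fell at 24 h and 3 rose at 3 h, with 5 of 6 below 0 at 24 h and 6 of 6 above 0 at 3 h. Mcm10, which helps start unwinding, had 30.8, 33.8 and 33.1 CPM in the fed 24 h, 46.6, 49.5 and 47.04 CPM in the fed 3 h and 36.01, 42.4 and 42.5 CPM in the unfed libraries. The groups do not overlap and fed 3 h is highest. Mcm10 fell at 24 h (log2 fold change −0.31, SE 0.0634, edgeR adjusted p = 0.00207) and rose at 3 h (log2 fold change 0.24, SE 0.0626, edgeR adjusted p = 0.00436). Gins1, of the GINS complex, had 12.6, 14.2 and 13.7 CPM in the fed 24 h, 18.8, 19.2 and 19.1 CPM in the fed 3 h and 14.4, 16.2 and 15.7 CPM in the unfed libraries. It is again ordered fed 24 h, unfed, fed 3 h with no overlap. Gins1 rose at 3 h (0.30, edgeR adjusted p = 0.000817) and fell by 0.19 at 24 h (edgeR adjusted p = 0.0349), a call lost in 7 of 19 alternatives, among them without fed 24 h replicate 1 or 3 or unfed replicate 2 or 3 (−0.19 to −0.14).

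Gins2, with the most counts of this role, had 54.5, 51.5 and 51.5 CPM in the fed 24 h, 61.01, 61.1 and 68.6 CPM in the fed 3 h and 53.3, 52.4 and 54.3 CPM in the unfed libraries. The fed 3 h values are highest, and fed 24 h and unfed values overlap. Gins2 rose at 3 h (0.25, edgeR adjusted p = 0.000765) and had a value of −0.02 at 24 h, but 67.3% of its exon bases are shared with Gse1 on the other strand. Gins3 (−0.17 and 0.07), Gins4 (−0.04 and 0.05) and Cdc45 (0.06 and 0.09) were not called at 24 h or at 3 h. Cdc45, which binds GINS and the helicase as one complex, averaged 34.3 ± 1.81 CPM in fed 24 h, 35.1 ± 0.974 CPM in fed 3 h and 32.9 ± 1.90 CPM in unfed libraries (SD, n = 3 each).

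Genes of primase and the polymerases mostly rose at 3 h. Of 6, 4 rose at 3 h and 1 fell at 24 h. Prim1, the catalytic subunit of primase, had 50.7, 53.5 and 54.1 CPM in the fed 24 h, 67.5, 67.2 and 69.5 CPM in the fed 3 h and 55.2, 54.5 and 55.8 CPM in the unfed libraries. The fed 3 h libraries are well above the rest, and fed 24 h lies just under unfed. Prim1 rose at 3 h (log2 fold change 0.30, SE 0.0432, edgeR adjusted p = 3.0e-05) and was not called at 24 h (−0.06). Prim2, the large primase subunit, rose at 3 h (0.28, edgeR adjusted p = 4.8e-05), and its −0.11 at 24 h missed the threshold (edgeR adjusted p = 0.0515).

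Pola1, the catalytic subunit of polymerase alpha, which extends primers, had 81.3, 90.7 and 86.4 CPM in the fed 24 h, 105, 101 and 103 CPM in the fed 3 h and 83.7, 95.05 and 96.4 CPM in the unfed libraries. Fed 24 h and unfed libraries overlap, and fed 3 h is highest. Pola1 rose at 3 h (0.17, edgeR adjusted p = 0.0175), a call lost without fed 3 h replicate 1 (0.16) or unfed replicate 1 (0.11) or with library totals alone (0.13). Its −0.09 at 24 h was not called, but without unfed replicate 1 it was −0.15 and called (edgeR adjusted p = 0.0281). Pole, the leading strand polymerase, rose at 3 h (0.26, edgeR adjusted p = 0.000874) and had −0.10 at 24 h. Pola2 was not called at 24 h or at 3 h (−0.04 and 0.09). Pold1, the catalytic subunit of the lagging strand polymerase delta, had 68.3, 76.1 and 69.7 CPM in the fed 24 h, 74.99, 78.7 and 77.4 CPM in the fed 3 h and 76.9, 88.9 and 81.2 CPM in the unfed libraries. Fed 24 h libraries lie below unfed libraries, and fed 3 h libraries overlap both. Pold1 fell at 24 h (−0.21, edgeR adjusted p = 0.0117), a call lost without fed 24 h replicate 1 or 3 or unfed replicate 2 (−0.18 to −0.15), and unlike the other 5 it did not lie above 0 at 3 h (−0.10, edgeR adjusted p = 0.166).

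Of the 5 genes of the clamp and its loader, 1 fell at 24 h (20%, near the 15.9% of all genes) and 2 rose at 3 h. Pcna, the sliding clamp that tethers polymerases, had 218, 222 and 219.6 CPM in the fed 24 h, 257, 265 and 268 CPM in the fed 3 h and 231, 232 and 233 CPM in the unfed libraries. Spread within each group was small, and the 3 groups do not overlap. Pcna rose at 3 h (log2 fold change 0.18, SE 0.0381, edgeR adjusted p = 0.000897), and −0.08 at 24 h was not called (edgeR adjusted p = 0.133). The annotation also holds the pseudogenes Pcna-ps1 and Pcna-ps2, and the counting of reads shared with them is unknown. Rfc3, a clamp loader subunit, had 28.4, 29.5 and 29.1 CPM in the fed 24 h, 38.4, 37.2 and 40.2 CPM in the fed 3 h and 30.2, 32.4 and 32.6 CPM in the unfed libraries. The 3 groups do not overlap, and fed 3 h is highest. Rfc3 rose at 3 h (0.28, edgeR adjusted p = 0.000228) and had −0.13 at 24 h (edgeR adjusted p = 0.063).

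Rfc5 had 34.99, 36.7 and 34.7 CPM in the fed 24 h, 39.4, 39.2 and 41.6 CPM in the fed 3 h and 39.9, 40.4 and 37.9 CPM in the unfed libraries. Fed 24 h is lowest, and fed 3 h and unfed overlap. Rfc5 fell by 0.15 at 24 h (edgeR adjusted p = 0.0265). That call was lost without fed 24 h replicate 1 or 3 or unfed replicate 1 or 2 (−0.14 to −0.13), or with no filter on low counts. Rfc2 (−0.03 and 0.04) and Rfc4 (−0.14 and −0.05) were not called at 24 h or at 3 h. Exon overlap with a gene on the other strand covers 15.1% of Rfc2 (Lat2), 12.7% of Rfc4 (Eif4a2) and 10.7% of Rfc5 (Wsb2).

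Both genes of single-stranded DNA binding fell at 24 h. Rpa1, the large subunit of replication protein A, had 361, 377 and 344 CPM in the fed 24 h, 459.9, 466 and 482 CPM in the fed 3 h and 383, 418 and 399 CPM in the unfed libraries. The fed 24 h libraries are lowest and the fed 3 h libraries highest, with no overlap. Rpa1 fell by 0.15 at 24 h (edgeR adjusted p = 0.025) and rose at 3 h (0.23, edgeR adjusted p = 0.000752). Rpa2 had 36.9, 40.8 and 35.2 CPM in the fed 24 h, 45.3, 44.3 and 47.2 CPM in the fed 3 h and 41.7, 43.8 and 42.2 CPM in the unfed libraries. Its groups did not overlap either, and it fell by 0.18 at 24 h (edgeR adjusted p = 0.0237), with 0.10 at 3 h not called. Both falls at 24 h were lost without fed 24 h replicate 1 or 3 or unfed replicate 2 or 3, with values from −0.18 to −0.11.

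For Okazaki fragment joining, Fen1, the flap nuclease, had 80.9, 91.4 and 81.9 CPM in the fed 24 h, 111, 109 and 120.2 CPM in the fed 3 h and 95.3, 107 and 101 CPM in the unfed libraries. The fed 24 h libraries lie below the unfed and the fed 3 h libraries above them. Fen1 fell at 24 h (log2 fold change −0.25, SE 0.0573, edgeR adjusted p = 0.00397) and rose at 3 h (0.17, edgeR adjusted p = 0.0224). The call at 3 h was lost without fed 3 h replicate 3 (0.12) or unfed replicate 1 (0.13) or 3 (0.17), or with library totals alone. Of its exon bases, 78.8% are shared with the antisense gene Gm10143, so its counts are uncertain. Lig1, the ligase that seals fragments, had 146, 151 and 146 CPM in the fed 24 h, 165, 155 and 167 CPM in the fed 3 h and 143, 159.7 and 153 CPM in the unfed libraries. Its fed 24 h and fed 3 h ranges each overlap the unfed range, and it was not called against unfed cells (−0.04 and 0.10).

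Nucleotide supply held the member with the highest level per length, Rrm2. Rrm1, the large subunit of ribonucleotide reductase, which makes deoxynucleotides, had 378, 418 and 371 CPM in the fed 24 h, 535, 509 and 531 CPM in the fed 3 h and 434, 468 and 441 CPM in the unfed libraries. The groups do not overlap, and fed 3 h is highest. Rrm1 fell at 24 h (log2 fold change −0.20, SE 0.0508, edgeR adjusted p = 0.00712) and rose at 3 h (log2 fold change 0.23, SE 0.0507, edgeR adjusted p = 0.00146). Rrm2, the small subunit, had 305, 325 and 322 CPM in the fed 24 h, 450.3, 422 and 435 CPM in the fed 3 h and 328, 364 and 345 CPM in the unfed libraries. The fed 3 h libraries are highest and the fed 24 h libraries lie just under the unfed ones. Rrm2 rose at 3 h (log2 fold change 0.33, SE 0.0476, edgeR adjusted p = 3.0e-05), and its −0.12 at 24 h was not called (edgeR adjusted p = 0.0588), though it was in 4 of 19 alternatives, among them the blocked fit of the 6 libraries compared (edgeR adjusted p = 0.0234).

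Neither gene of thymidylate supply was called at 3 h. Tyms, thymidylate synthase, averaged 63.6 ± 2.56 CPM in fed 24 h, 67.1 ± 3.06 CPM in fed 3 h and 69.7 ± 1.56 CPM in unfed libraries (SD, n = 3 each). Its fall of 0.13 at 24 h had an adjusted p of 0.0469 in edgeR and was lost in 12 of 19 alternatives, the replicate block among them (edgeR adjusted p = 0.0659). Tyms also has an annotated pseudogene, Tyms-ps. Tk1, thymidine kinase, averaged 147 ± 1.10 CPM in fed 24 h, 151 ± 9.87 CPM in fed 3 h and 151 ± 5.07 CPM in unfed libraries (SD, n = 3 each) and was not called at 24 h or at 3 h (−0.04 and −0.0033).

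**Figure D4:**
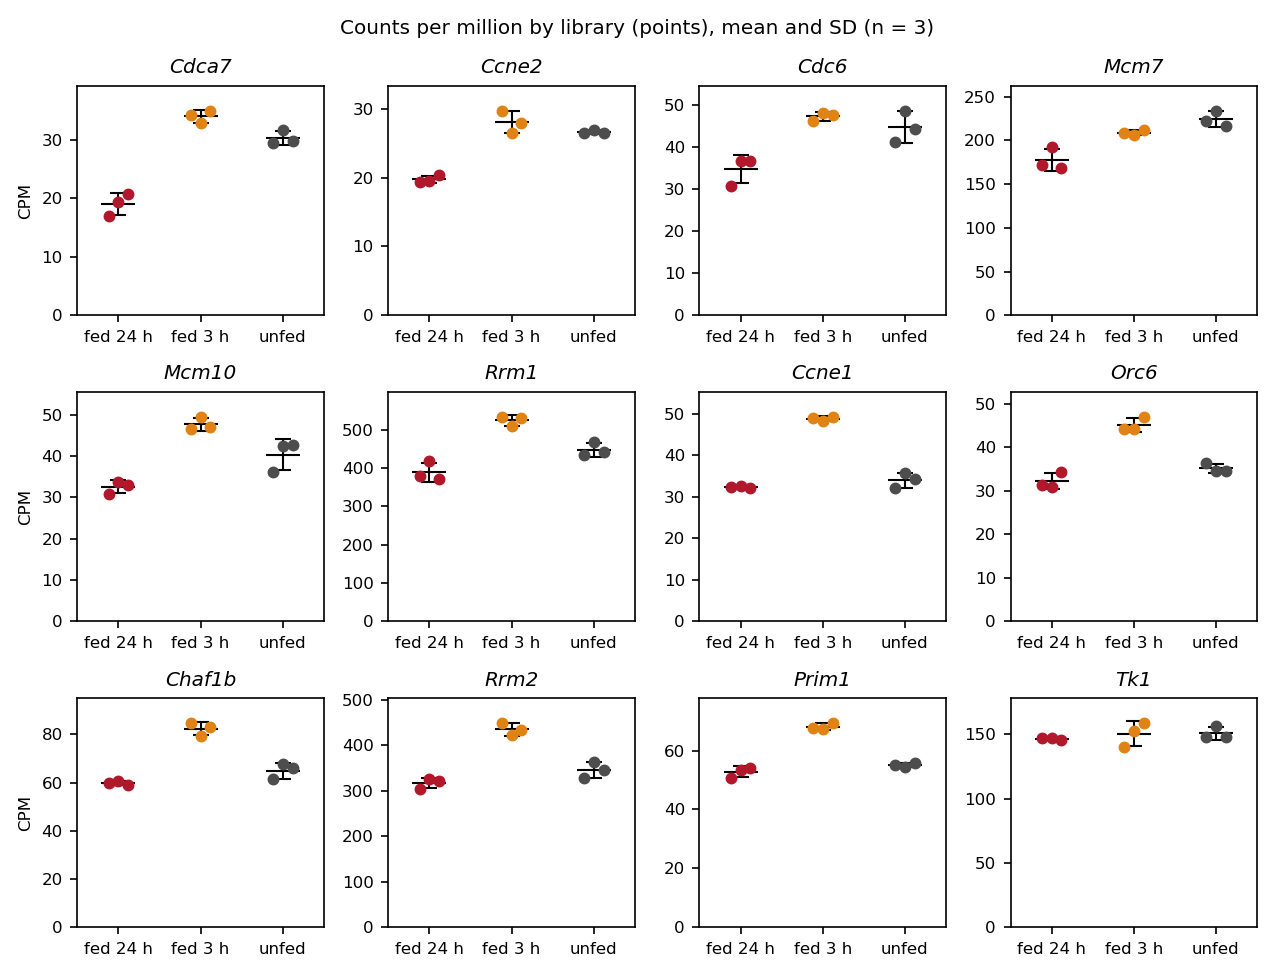
CPM of 12 members in each library (points), with the mean and SD of the 3 libraries of each group. Cdca7, Ccne2 and Cdc6 are lowest in fed 24 h libraries, Ccne1, Orc6, Chaf1b, Rrm2 and Prim1 are highest in fed 3 h libraries, and Tk1 overlaps between fed 3 h and unfed libraries.

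Chromatin and histone supply held the strongest fall. Cdca7, which recruits the remodeller HELLS to chromatin, had 16.97, 19.3 and 20.7 CPM in the fed 24 h, 34.2, 32.8 and 34.95 CPM in the fed 3 h and 29.5, 31.6 and 29.8 CPM in the unfed libraries. Every fed 24 h library lies far below the lowest unfed library, and the fed 3 h libraries lie slightly above the unfed ones. Cdca7 fell at 24 h by 37.3% (log2 fold change −0.67, SE 0.0658, edgeR adjusted p = 7.6e-06). Its rise at 3 h of 0.17 (edgeR adjusted p = 0.0413) was lost in 6 of 19 alternatives, among them without fed 24 h replicate 2, fed 3 h replicate 1 or 3, or unfed replicate 1 or 3 (0.14 to 0.16).

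Chaf1b, a subunit of the histone chaperone CAF-1, had 59.8, 60.5 and 59.1 CPM in the fed 24 h, 84.9, 79.3 and 83.1 CPM in the fed 3 h and 61.3, 67.5 and 65.96 CPM in the unfed libraries. The fed 3 h libraries are the highest by a wide gap. Chaf1b rose at 3 h (log2 fold change 0.34, SE 0.0467, edgeR adjusted p = 1.9e-05) and had −0.12 at 24 h (edgeR adjusted p = 0.067). Its partner Chaf1a rose at 3 h (0.17, edgeR adjusted p = 0.0194), with 52.5% of its exon bases shared with Ubxn6 on the other strand. That call was lost without fed 3 h replicate 3 (0.15) or unfed replicate 1 (0.10), or with library totals alone. Uhrf1, which brings DNA methyltransferase to newly copied DNA, had 238, 248 and 237 CPM in the fed 24 h, 269, 275 and 273 CPM in the fed 3 h and 253, 301 and 273 CPM in the unfed libraries. The fed 24 h libraries lie below all others, and the unfed libraries spread widely around the fed 3 h ones. Uhrf1 fell by 0.19 at 24 h (edgeR adjusted p = 0.0127), lost without fed 24 h replicate 1 or 3 or unfed replicate 2 (−0.18 to −0.12), and had −0.02 at 3 h. Slbp, the histone mRNA stem-loop binding protein, had −0.01 at 24 h and 0.12 at 3 h, a call (edgeR adjusted p = 0.0393) that was lost in 10 of 19 alternatives.

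Among regulators of S phase entry, Ccne1 was called at 3 h and Ccne2 at 24 h. Ccne1, cyclin E1, had 32.3, 32.5 and 32.1 CPM in the fed 24 h, 48.8, 48.2 and 49.3 CPM in the fed 3 h and 32.00, 35.7 and 34.1 CPM in the unfed libraries. The fed 3 h libraries stand far above the other 6, which overlap. Ccne1 had the largest rise of the 44 at 3 h, 43.6% (log2 fold change 0.52, SE 0.0483, edgeR adjusted p = 3.9e-07), and was not called at 24 h (−0.07). Ccne2, cyclin E2, had 19.3, 19.6 and 20.3 CPM in the fed 24 h, 29.7, 26.5 and 27.9 CPM in the fed 3 h and 26.5, 26.96 and 26.5 CPM in the unfed libraries. Here the fed 24 h libraries stand apart below, and the fed 3 h and unfed libraries overlap. Ccne2 fell at 24 h by 25.9% (log2 fold change −0.43, SE 0.0541, edgeR adjusted p = 5.9e-05) and was not called at 3 h (0.07). Of the exon bases of Ccne2, 17.4% are shared with Ints8.

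E2f1, an activating E2F factor, had 70.3, 69.4 and 68.7 CPM in the fed 24 h, 84.99, 80.6 and 81.9 CPM in the fed 3 h and 70.9, 73.96 and 74.4 CPM in the unfed libraries. The 3 groups do not overlap, and the fed 3 h libraries are highest. E2f1 rose at 3 h (0.17, edgeR adjusted p = 0.00248) and had −0.07 at 24 h (edgeR adjusted p = 0.205). E2f2, another activating E2F, was the least abundant member at 0.509 CPM per kb in unfed cells, with 2.07, 2.00 and 1.93 CPM in the fed 24 h, 2.33, 2.35 and 2.48 CPM in the fed 3 h and 2.26, 2.88 and 2.31 CPM in the unfed libraries. The fed 24 h values lie below the unfed ones, yet its −0.31 at 24 h had an SE of 0.139 and was not called (edgeR adjusted p = 0.102).

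Set directly against fed 3 h cells, fed 24 h cells had 36 of 44 members lower and 0 higher, where 30.2% of genes tested were called lower and 30.8% higher. The median was −0.29 and every member lay below 0, from −0.84 to −0.04, while the median of all genes was −0.0017. This comparison uses the same fed libraries as the 2 above. Time since feeding and collection time cannot be told apart in it, as no unfed libraries at 3 h were analysed. The largest differences were Cdca7 at −0.84 (edgeR adjusted p = 2.7e-08), Cdt1 at −0.61 (edgeR adjusted p = 1.3e-07), Ccne1 at −0.59 (edgeR adjusted p = 4.0e-08), Mcm10 at −0.55 and Ccne2 and Orc1 at −0.51 each. All 10 licensing genes, both single-stranded DNA binding genes, both joining genes and all 5 chromatin genes were called lower. The calls of Lig1 (−0.14) and Slbp (−0.13) were each lost in 5 of 19 alternatives and that of Pola2 (−0.13) in 9 of 19. Without fed 24 h replicate 3, fed 3 h replicate 1 or fed 3 h replicate 3 all 3 were lost (−0.14 to −0.098), without fed 24 h replicate 1 Lig1 (−0.12) and Pola2 (−0.092), and without fed 24 h replicate 2 (−0.14) or unfed replicate 3 (−0.13) Pola2 alone. Pold1 was called only without fed 24 h replicate 2 or with the replicate block. The 8 members not called were Cdc45, Gins4, Pold1, Rfc2, Rfc4, Tk1, Tyms and E2f2. For the 2 with the smallest values, Cdc45 (−0.04, SE 0.0555) and Tk1 (−0.04, SE 0.0482), the groups overlapped.

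Other genes of the same process were read from lists chosen by function, also with earlier results of these data known. Their shares are set beside those of all genes tested, 15.9% lower and 14.9% higher at 24 h and 25.1% higher and 25.5% lower at 3 h. Among 38 other replication fork and origin factors, 12 fell and 2 rose at 24 h (31.6% and 5.26%, median −0.08), and 17 rose and 3 fell at 3 h (44.7% and 7.89%, median 0.12). The strongest falls at 24 h were Dtl, the ubiquitin ligase adaptor that removes CDT1 (47.6 CPM in fed 24 h and 65.0 CPM in unfed cells on average, log2 fold change −0.45), Dna2, a nuclease of flap processing (−0.28), Atad5, which unloads PCNA (−0.25), and Pold2 (−0.24). Cdc7, the kinase that fires licensed origins, rose (7.70 CPM in fed 24 h and 6.22 CPM in unfed cells, log2 fold change 0.31), as did Mcm9 (0.20). At 3 h the largest rises were Clspn, a fork checkpoint adaptor (0.48), Pold4 (0.47), Mtbp (0.45) and Ticrr (0.44), a pair that helps fire origins, and Chtf8 (−0.26), Rpa3 (−0.25) and Orc3 (−0.23) fell.

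Of 24 replication-coupled chromatin and repair genes, 10 fell and 0 rose at 24 h (41.7% lower, median −0.13), and 12 rose and 2 fell at 3 h (50% and 8.33%, median 0.10). Msh6, a mismatch recognition protein, fell at 24 h (76.3 CPM in fed 24 h and 104 CPM in unfed cells, log2 fold change −0.45), followed by Ung (−0.29), Hells, the remodeller that CDCA7 recruits (−0.22), and Asf1a (−0.22). At 3 h Nasp, a histone chaperone (0.49), Exo1 (0.35), Hells (0.32) and Dnmt1 (0.29) rose, while Asf1b (−0.17) fell. Other nucleotide supply genes had 8 of 17 tested lower and 1 higher at 24 h (47.1% and 5.88%, median −0.12), among them Dctpp1 (−0.47), Cad (−0.44), Gart (−0.38) and Umps (−0.33), which make or guard nucleotides. Samhd1, which breaks down deoxynucleotides, rose at 24 h (0.21) and fell at 3 h (211 CPM in fed 3 h and 352 CPM in unfed cells, log2 fold change −0.73), and of these 17 genes 6 rose and 4 fell at 3 h (35.3% and 23.5%, the second near the share of all genes, median 0.05).

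Of 31 other tested regulators of S phase entry, 12 fell and 1 rose at 24 h (38.7% and 3.23%, median −0.09), and 15 rose and 8 fell at 3 h (48.4% and 25.8%, median 0.10). The share lower at 3 h is near that of all genes. Cdk6, a kinase of the D cyclins, fell at 24 h (24.7 CPM in fed 24 h and 35.7 CPM in unfed cells, log2 fold change −0.53), as did Skp2, which marks CDK inhibitors for breakdown (−0.44), Ccnd1, cyclin D1 (−0.32), and E2f3 (−0.26). Rbl2, a repressor related to the retinoblastoma protein, rose at 24 h (0.28) and fell at 3 h (−0.34). At 3 h Myc (65.8 CPM in fed 3 h and 34.8 CPM in unfed cells, log2 fold change 0.92), Mybl2 (0.68), Fbxw7 (0.47) and Lin54 (0.39) rose. The CDK inhibitors Cdkn2d (−0.34), Cdkn1b (−0.30) and Cdkn2a (−0.27) fell at 3 h.

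Of the 47 G2 and mitosis genes, 8 rose and 5 fell at 24 h (17.0% and 10.6%, near the shares of all genes, median −0.02), with Cenpe (0.48) and Ndc80 (0.28), which act at kinetochores, higher and Ccnf, cyclin F (−0.42), lower. At 3 h 20 rose and 8 fell (42.6% and 17.0%, median 0.07), with Smc2 (0.43), Ccnf (0.37), Prc1 (0.32) and Cdk1 (0.30) higher and Cdc25c (−0.33) and Bub1b (−0.26) lower. The list labelled replication-dependent histone genes took all symbols starting Hist1h, Hist2h, Hist3h or Hist4h. That rule does not leave out pseudogenes or histone genes not tied to replication. Only 17 of its 70 genes passed the filter on low counts, and replication-dependent histone transcripts lack the poly(A) tail on which both stated library kits rely. Of the 17 tested, 4 were called higher at 24 h and 3 at 3 h (23.5% and 17.6%, the second below the 25.1% of all genes), with 0 lower, led in abundance by Hist1h1c (26.0 CPM in fed 24 h, 26.4 CPM in fed 3 h and 19.2 CPM in unfed cells). No list was tested as a set.

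**Figure D5:**
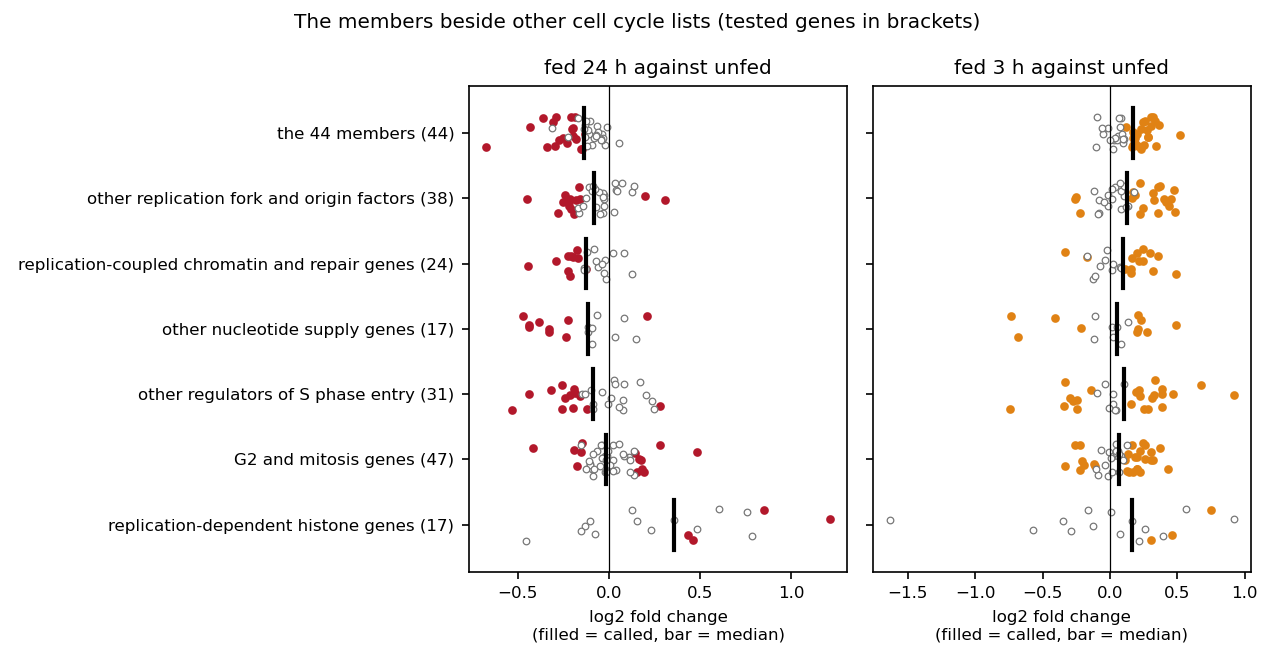
Log2 fold changes of the 44 members and of 6 other cell cycle lists, fed 24 h against unfed on the left and fed 3 h against unfed on the right, with filled points called and black bars at the median. The medians of the members lie at −0.13 and 0.17, and those of the G2 and mitosis genes at −0.02 and 0.07.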

How the data were processed

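RNA sequencing of 9 ST2 libraries was read as the deposited table of raw read counts per mouse gene symbol, made by the authors without normalization, 1 column per library. MultiQC 1.7, featureCounts, Subread 1.6.4 and STAR 2.7.0f are named in the submitters' processing notes, with the builds GRCm38.p6 and GRCh38.p13. Not given in the sources used here are how the 2 genomes were used and the annotation, strand and multi-mapping settings. Per the labels' protocols, libraries were made with TruSeq Stranded mRNA, whereas the series text gives SMART-Seq v4 and Nextera XT, so strand is unresolved and counts of overlapping genes are uncertain.

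All 9 libraries entered 1 quasi-likelihood fit in edgeR 4.0.16 (R 4.3.3) with the group as the only term, TMM factors and filterByExpr, which kept 13568 genes holding at least 99.96% of each library's counts. Benjamini-Hochberg adjustment ran over these genes, with a call at an adjusted p under 0.05. Each SE was derived from the log2 fold change and its quasi-likelihood F statistic, so it is not independent of the p-value. CPM are counts over the TMM-scaled library total, with SD over 3 libraries, and CPM per kb divides by exon length in GENCODE M21. Coordinates are those of GRCm38, and promoter windows those of RefSeq GRCm38.p6. The common biological coefficient of variation was 0.0536, and no 2 libraries of a group agreed within counting error (chi-square per degree of freedom 5.47 to 16.1). The fit was run on simulated counts for fed 24 h against unfed, as were the limma voom and DESeq2 Wald alternatives but no others. The simulation gave all genes the same spread and changed few of them. Changes as small as the median of the members at 24 h were not simulated.

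Members and lists were chosen with earlier results of these data known. Every member is named, and per-library values are given for the member of each role with the largest change at 24 h, the largest at 3 h and the highest mean CPM, besides Cdt1, Mcm7 and E2f2, which were added after their values were seen. Of each other list, up to 4 called genes per direction with the largest change and at least 5 CPM were eligible, and not all are described. Alternatives were DESeq2 1.42.0 size factors and Wald test, limma 3.58.1 voom, library totals alone, no filter, a stricter filter (at least 5 CPM in 3 libraries), the 6 libraries compared, a replicate block, each library left out, and a fit without genes linked to ribosomal RNA and mitochondrial genes. A replicate block in the 6 libraries compared was added after seeing the data.

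Replicate numbers come from the sample titles. Deviations from the group means of same-numbered fed 24 h and unfed libraries correlated at 0.107, 0.114 and 0.116 over genes. Their different-numbered pairs ran from −0.175 to 0.0597, and the numbers were taken to pair these 2 groups. Deviations within a group cancel out, so the different-numbered values are not separate evidence. The fit reported has no term for this pairing. Different-numbered libraries of fed 24 h and fed 3 h reached 0.166, so this pairing is uncertain. For same-numbered pairs with fed 3 h libraries the correlations ran from −0.279 to −0.0059, and there the number is only a name.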

Additional observations from a re-analysis of the deposited data

How the results depend on the processing

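At 24 h against unfed cells, the number of members called lower was 17 to 22 over the alternatives of scaling, filter, tool and design, against 19 in the fit reported, and 12 to 23 with 1 library left out. It was 12 without fed 24 h replicate 1 and 12 without unfed replicate 2, and over all genes 1426 were lower without fed 24 h replicate 1 (1426 to 2241 with 1 library left out, 2159 reported). Members called higher stayed at 0 in every alternative run. With the replicate block 18 members were lower at 24 h, Tyms being lost, and with the block in the 6 libraries compared 22 were lower, with Orc1, Mcm6 and Rrm2 added. The block changed no other member call at 24 h. Members not called at 24 h became so without unfed replicate 1 (Chaf1b, Rfc3, Rfc4, Pola1, Orc1 and Rrm2), fed 24 h replicate 2 (Gins3, Mcm6 and Prim2) or fed 24 h replicate 3 (Orc1 and Orc6), with values from −0.33 to −0.13, and at 3 h without unfed replicate 2 (Lig1 0.13 and Pola2 0.14), unfed replicate 1 (Pold1 −0.14) or fed 24 h replicate 2 (Mcm7 −0.10). At 3 h, 20 to 27 members were higher. With library totals alone 20 were higher and 2 lower (Mcm7 and Pold1), and with 1 library left out 0 to 1 were lower. For fed 24 h against fed 3 h, 33 to 37 were lower, and the median of the members was −0.24 with library totals alone and −0.34 to −0.26 with 1 library left out, against −0.29. In the comparisons with fed 3 h the number does not pair libraries, and the block gave 24 members higher at 3 h (Slbp lost) and 37 lower between the fed groups (Pold1 added). The cause of these shifts was not tested.

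Some uncalled values changed sign. With 1 library left out, the value at 24 h ran from −0.073 to 0.012 for Gins4, −0.063 to 0.025 for Rfc2, −0.042 to 0.016 for Slbp, −0.082 to 0.018 for Pola2 and −0.12 to 0.0081 for Chaf1a. At 3 h it ran from −0.044 to 0.052 for Tk1, −0.013 to 0.089 for Gins4, −0.0038 to 0.042 for Rfc5, −0.077 to 0.051 for Uhrf1 and −0.13 to 0.059 for E2f2. Between the fed groups it ran from −0.057 to 0.014 for Cdc45 and −0.092 to 0.0015 for Tk1. With the stricter filter Slbp was 0.0038 at 24 h. With library totals alone Mcm5 was −0.013, Rfc2 −0.0079 and Rfc5 −0.021 at 3 h, and Cdc45 was 0.017 and Tk1 0.012 between the fed groups. Tk1 was 0.0027 at 3 h with DESeq2 size factors and with the Wald test.

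E2F-type motifs stood in 41.7% of member windows, in 83.3% with the relaxed letters TTNNCGC and in 13.9% within 100 bases before the start, where the shares of all genes were 22.6% and 0.981%. The stricter filter on low counts removed 1 member, E2f2, and 3 libraries a group limit what changes of this size can pass the test.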
